A study of Mus musculus with 5 samples.

Results

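Inhibitory receptors of the B cell surface dampen signalling through the B cell receptor (BCR), and the transcripts of 10 of them were examined here by RNA sequencing of mouse germinal centre light zone B cells. The 10 genes were taken from the deposited table by name, out of 23234 genes in all: Cd22, Cd72, Fcgr2b, Lilrb3, Siglecg, Cd5, Lair1, Btla, Pecam1 and Ceacam1. Lilrb3 is the name the table uses for PIR-B, the paired immunoglobulin-like receptor B. There were 2 libraries labelled Csk(f/f) and 3 labelled Csk(+/+), described as biological replicates. Donor B cells of the first group were floxed on both alleles of Csk, written Csk(fl/fl), and those of the second were Csk(+/+). All donor cells of both groups were heterozygous for ERT2cre(KI/+), a Cre recombinase switched on by tamoxifen, and for the knock-in B1-8hi(KI/+), an immunoglobulin heavy chain that confers binding to the hapten NP. All were CD45.1/2 cells. The labels do not name the promoter that drives the Cre, which was present in the donor cells. Csk is a kinase that restrains the Src family by phosphorylating a tyrosine in their tails. Naive donor cells were placed in C57BL/6J hosts, all of which received NP-CGG in alum intraperitoneally on day 0 and tamoxifen on days 8 and 9. NP-binding donor cells of the light zone were sorted from spleen on day 11. The labels give about 10000 sorted cells for each library and do not say whether hosts were pooled or how old they were.

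Most of these receptors share a mode of action. Their cytoplasmic tails carry the immunoreceptor tyrosine-based inhibitory motif (ITIM), and when a receptor is brought near the BCR the Src family kinase Lyn phosphorylates the ITIM tyrosine. The phosphotyrosine then recruits the phosphatases SHP-1, SHP-2 or SHIP-1, which reverse phosphorylation steps started by the BCR. Csk holds Lyn and its relatives in check, and the comparison asks whether light zone B cells of the Csk(f/f) donors express these receptors at other levels than cells of the Csk(+/+) donors.

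The coding sequence around the ITIM tyrosine is shown for the 6 most abundant members, since it is the feature of that mode of action. Coding sequences were read from GENCODE release M21 transcripts of the GRCm38 build, with Lilrb3 matched to the symbol Pirb, and all 10 members matched. The motif was searched as a codon for isoleucine, valine, leucine or serine, any codon, a tyrosine codon, any 2 codons, and a codon for leucine, valine or isoleucine, on the coding strand and on the cytoplasmic side of the most hydrophobic stretch of 19 codons. Each line gives 18 coding bases, 5′ to 3′, with the tyrosine codon in capitals.
Cd22 site 1: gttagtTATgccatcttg
Cd22 site 2: gtcactTACtcggtgata
Cd22 site 3: atccatTACtcagagctg
Cd22 site 4: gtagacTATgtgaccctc
Cd72 site 1: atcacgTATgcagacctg
Cd72 site 2: ctcaccTACgagaatgtg
Fcgr2b site 1: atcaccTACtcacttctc
Siglecg site 1: ctggacTACatcaatgtg
Siglecg site 2: ctccacTATgctgctctc
Siglecg site 3: tctgatTACacagaggtc
Btla site 1: attgttTATgcttctttg
Pecam1 site 1: gtagaaTACacagaagtg

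All 10 members held at least 1 match in this form, with 4 in Cd22, 3 each in Siglecg and Lilrb3, 2 each in Cd72 and Lair1, and 1 each in Fcgr2b, Cd5, Btla, Pecam1 and Ceacam1. A match is common and does not by itself show that the site works as an ITIM. Of 20512 coding genes long enough to be read, 19.6% held at least 1 in their last 120 codons. Cd72 is a type II membrane protein, so its sites lie near the start of the protein, at codons 7 and 39, and those of the other members lie near the end. The annotation places Cd22, Lilrb3, Siglecg, Lair1 and Ceacam1 on chromosome 7, Cd72 on chromosome 4, Fcgr2b on chromosome 1, Cd5 on chromosome 19, Btla on chromosome 16 and Pecam1 on chromosome 11. The authors mapped to mm9, and no coordinates are given for that reason.

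Values are FPKM as deposited by the authors, that is, fragments scaled to the length of the transcript and to the depth of the library. From the spacing of the smallest FPKM, depth was estimated at 23700000 and 9550000 fragments in the Csk(f/f) libraries and 15900000, 19600000 and 11900000 fragments in the Csk(+/+) libraries. Testing with limma on log2(FPKM + 1) covered the 10242 genes that had 1 FPKM or more in 2 or more libraries. Its p-values measure the spread between these libraries. The Csk gene itself had 453 and 476 FPKM in Csk(f/f)-labelled cells, against 378, 436 and 415 FPKM in Csk(+/+) cells (limma adjusted p = 0.439). As deposited, every Csk(f/f) library lay above every Csk(+/+) library, so the level was no lower under the Csk(f/f) label. Among all genes tested, 20.7% were likewise higher without overlap. The Csk transcript has a GC content of 60.1%. After the correction for GC content given below, its log2 fold change was -0.14 (limma adjusted p = 0.818). On that scale every Csk(f/f) library lay below every Csk(+/+) library, and 28.5% of genes had groups that did not overlap, in either direction. Since FPKM is summed over all exons, deleted or not, the genotype labels stand unchecked, and Csk(f/f) below always means the libraries so labelled. All 8 germinal centre B cell markers of the table were expressed at 1 FPKM or more in 2 or more libraries. Light zone markers summed to between 889 and 918 FPKM in the Csk(f/f) libraries and between 791 and 840.1 FPKM in the Csk(+/+) libraries. That gap lay in Cd83, since without it the sums ran from 402 to 403 FPKM in the Csk(f/f) libraries, inside the 388 to 461 FPKM of the Csk(+/+) libraries. Of the 5 light zone genes, 1 was higher and 2 were lower by an unadjusted limma p under 0.05. The shares of all genes tested were 8.07% higher and 13.6% lower. Dark zone markers summed to between 542 and 564 FPKM in the Csk(f/f) libraries and between 749 and 889 FPKM in the Csk(+/+) libraries. Naive B cell markers, mostly Fcer2a, summed to between 444 and 499.6 FPKM in Csk(f/f) libraries and between 359.5 and 404 FPKM in Csk(+/+) libraries. Without Fcer2a the sums still did not overlap, at 21.1 to 22.5 FPKM in Csk(f/f) and 12.4 to 13.4 FPKM in Csk(+/+). Markers of other cells that can express Cd5, Lair1, Pecam1 or Lilrb3 ranged from absent to well above the scarce receptors. Of the T cell markers, Cd3e, Cd3g and Icos were listed at 0 in all 5 libraries, and the list without Lck (105 to 122 FPKM) summed to at most 0.645 FPKM. The 7 neutrophil markers summed to 0 in both Csk(f/f) libraries and to between 0 and 2.71 FPKM in the Csk(+/+) libraries. The 10 macrophage markers summed to 24.6 FPKM in both Csk(f/f) libraries and to between 12.2 and 21.5 FPKM in the Csk(+/+) libraries, mostly Cd68 and Lyz2, with Mertk at 0 throughout. These sums exceeded the FPKM of Lilrb3 and Lair1 in every library and were higher in the Csk(f/f) libraries. Macrophage markers other than Cd68 and Lyz2, Csf1r among them, each stayed at or below 0.538 FPKM in every library, under the lowest value of Lilrb3. The 5 platelet markers summed to between 1.88 and 2.14 FPKM in the Csk(f/f) libraries and between 0.597 and 2.43 FPKM in the Csk(+/+) libraries. The 9 endothelial and stromal markers, mostly Mfge8, summed to between 4.44 and 4.52 FPKM in Csk(f/f) and between 3.64 and 4.06 FPKM in Csk(+/+). Without Mfge8 those sums overlapped, at 0.671 to 0.963 FPKM in Csk(f/f) and 0.307 to 1.04 FPKM in Csk(+/+). The dendritic list, nearly all Flt3, summed to between 18.2 and 24.0 FPKM in the Csk(f/f) libraries and between 17.02 and 22.3 FPKM in the Csk(+/+) libraries. Erythroid transcripts varied within both groups, between 195 and 457 FPKM in the Csk(f/f) libraries and between 184 and 929 FPKM in the Csk(+/+) libraries. Their part in the results was not tested.

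The receptors were expressed over a wide range of levels. Cd22 was the most abundant in every library, above 97.3% of the genes tested by mean FPKM. Cd72, Fcgr2b and Siglecg followed at similar levels, then Btla and Pecam1. Lilrb3, Ceacam1 and Cd5 lay near 1 FPKM, and Lair1 near 0. The range of Cd22 (232 to 381 FPKM over the 5 libraries) did not overlap that of Cd72 (68.7 to 99.6 FPKM), but neighbours in the order from Cd72 to Btla did overlap, with Fcgr2b above Siglecg in only 2 of 5 libraries. Pecam1 lay apart from both Btla above it and Lilrb3 below it. The ranges of Lilrb3 and Ceacam1 overlapped, as did those of Ceacam1 and Cd5. Only the gap between Cd5 and Lair1 separated the low members. Cd22 alone made up 55.1% and 57.4% of the summed FPKM of the 10 genes in the Csk(f/f) libraries, against 49.8%, 52.2% and 49.7% in the Csk(+/+) libraries. The 5 most abundant members made up 96.3% to 96.7% of the sum in every library.

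**Figure D1:**
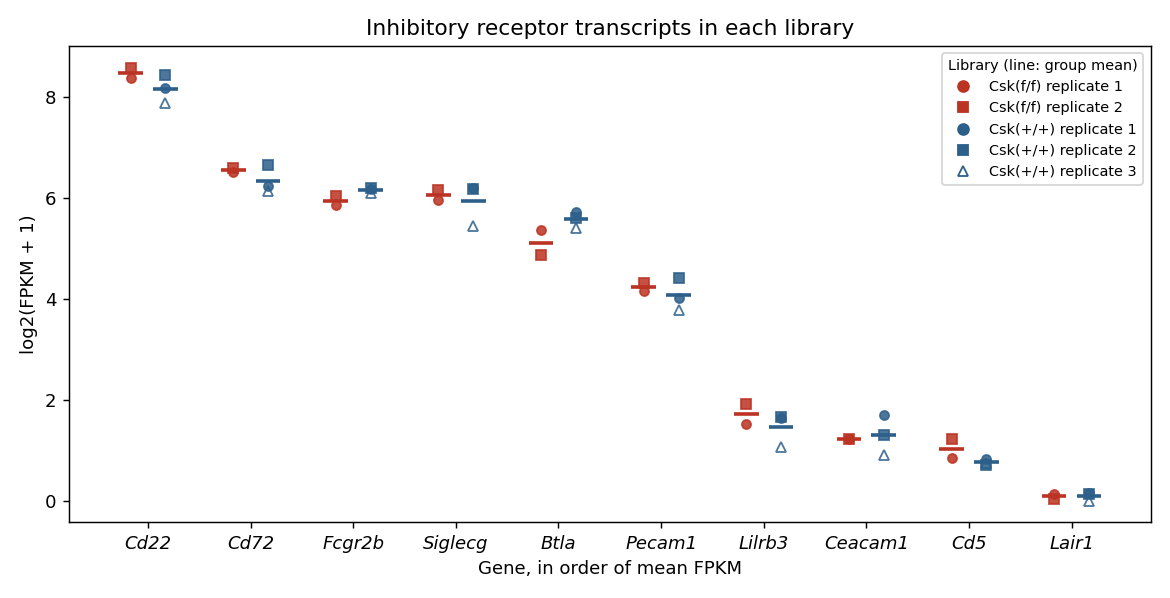
Log2(FPKM + 1) of the 10 inhibitory receptor genes, with 1 point per library and a line at the group mean, Csk(f/f) at the left of each pair and Csk(+/+) at the right. Cd22 is highest throughout, and the open triangle of Csk(+/+) replicate 3 is the lowest Csk(+/+) point for 9 of the 10 genes.

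No member passed the threshold between the groups. At a limma adjusted p under 0.05 the count was 0 of the 8 members tested, where 0.0781% of all genes tested passed (8 of 10242), 0.0391% in each direction. At an unadjusted p under 0.05 the count was 1 of 8, lower in the Csk(f/f) libraries, with 21.7% of all genes tested (8.07% higher and 13.6% lower). Log2 fold changes of the 8 members were centred on a median of 0.14 (5 above and 3 below 0), beside -0.01 for all genes tested. The 95% intervals of the 8 reached from a fold of 0.539 at the lowest, for Btla, to a fold of 1.81 at the highest, for Lilrb3, so halvings or doublings lay outside all of them on the log2(FPKM + 1) scale. That scale understates the change of genes near 1 FPKM, such as Lilrb3 and Ceacam1. In sorted bulk cells, fewer cells of a type and less RNA per cell cannot be told apart.

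The lectin receptors Cd22, Siglecg and Cd72 did not pass the threshold, and for each of them the groups of libraries overlapped. Cd22, a lectin that binds alpha-2,6-linked sialic acid on the same or neighbouring cells and recruits SHP-1, had 329 and 381 FPKM in the Csk(f/f) libraries, against 288, 345 and 232 FPKM in the Csk(+/+) libraries. The groups overlapped, since Csk(+/+) replicate 2 lay above Csk(f/f) replicate 1. The means were 355 ± 36.5 FPKM in Csk(f/f) (SD, n = 2) and 288 ± 56.3 FPKM in Csk(+/+) (SD, n = 3). The log2 fold change of Cd22 was 0.31 ± 0.19 (SE), with a limma adjusted p of 0.341. Siglecg, a related lectin best known for restraining B1 cells, had 61.0 and 70.5 FPKM in the Csk(f/f) libraries, against 72.1, 71.6 and 42.6 FPKM in the Csk(+/+) libraries. Both Csk(f/f) libraries lay inside the Csk(+/+) range, with replicate 3 far below the other 2, and the log2 fold change was 0.12 ± 0.24 (SE, limma adjusted p = 0.781). Without Csk(+/+) replicate 3 that of Siglecg was -0.13 (limma adjusted p = 0.455). Cd72, a C-type lectin that binds the semaphorin Sema4d and recruits SHP-1, had 90.4 and 95.6 FPKM in the Csk(f/f) libraries, against 74.5, 99.6 and 68.7 FPKM in the Csk(+/+) libraries. Csk(+/+) replicate 2 was the highest of all 5 libraries, and the log2 fold change was 0.22 ± 0.17 (SE, limma adjusted p = 0.472). That of Cd72 was 0.37 without Csk(+/+) replicate 2 (limma adjusted p = 0.212) and 0.11 without Csk(+/+) replicate 3 (0.622).

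Fcgr2b and Btla were the members whose groups of libraries did not overlap among the 8 tested, and both were lower in the Csk(f/f) libraries. Among all genes tested, 24.5% were lower without overlap, 20.7% were higher without overlap and 45.1% were either, so 2 of 8 lower is close to the background and 2 of 8 in either direction is below it. Fcgr2b encodes the low-affinity IgG receptor of B cells, which senses immune complexes and recruits SHIP-1. It had 56.7 and 64.6 FPKM in the Csk(f/f) libraries, against 71.3, 72.6 and 67.1 FPKM in the Csk(+/+) libraries. The 3 Csk(+/+) values lay close together, and the higher Csk(f/f) library was just below the lowest of them. The means were 60.6 ± 5.63 FPKM in Csk(f/f) (SD, n = 2) and 70.3 ± 2.84 FPKM in Csk(+/+) (SD, n = 3). The log2 fold change of Fcgr2b was -0.21 ± 0.13 (SE), with a limma adjusted p of 0.337. It was -0.12 without Csk(f/f) replicate 1 and -0.31 without Csk(f/f) replicate 2. Btla, which binds the tumour necrosis factor receptor Tnfrsf14 (HVEM) and recruits SHP-1 and SHP-2, had 39.8 and 28.1 FPKM in the Csk(f/f) libraries, against 51.9, 47.2 and 41.5 FPKM in the Csk(+/+) libraries. Csk(f/f) replicate 1 lay next to Csk(+/+) replicate 3, and Csk(f/f) replicate 2 was well below all others. The means were 34.0 ± 8.32 FPKM in Csk(f/f) (SD, n = 2) and 46.8 ± 5.21 FPKM in Csk(+/+) (SD, n = 3). The log2 fold change of Btla was -0.47 ± 0.18 (SE), with an unadjusted limma p of 0.0347 and an adjusted p of 0.21. It was the member at an unadjusted p under 0.05. With either Csk(f/f) library alone, the Btla difference was -0.71 (Csk(f/f) replicate 1 left out) or -0.22 (replicate 2 left out).

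Fold changes in these libraries followed the GC content of the transcript, with a Spearman rho of 0.71 across 10119 genes, which are not independent replicates. The trend split by group. Each library's departure from the gene means had a rho of 0.54 and 0.66 in Csk(f/f), against -0.56, -0.21 and -0.41 in Csk(+/+). A GC bias and an effect of genotype thus cannot be told apart here, and subtracting the trend may remove either. Btla had the lowest GC content of the tested members (40.7%, with 7.8% of tested genes below it), Fcgr2b the next (45.4%) and Cd72 the highest (56.5%). After the GC trend of each library was subtracted, the log2 fold change was -0.03 for Btla (limma adjusted p = 0.969), 0.03 for Fcgr2b (0.963), -0.06 for Cd72 (0.933) and -0.02 for Siglecg (0.99). Cd22 kept 0.19 (limma adjusted p = 0.764) and Lilrb3 0.34 (0.63). The corrected intervals of the 8 members reached from a fold of 0.711, for Siglecg, to 1.78, for Lilrb3. After the correction 0 of 8 members passed at an adjusted p under 0.05 by limma, with 0.0791% of the genes tested, and 0 of 8 at an unadjusted p under 0.05, with 9.96%. The groups of libraries overlapped for all 8 on the corrected scale, where the groups did not overlap, in either direction, for 28.5% of genes.

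**Figure D2:**
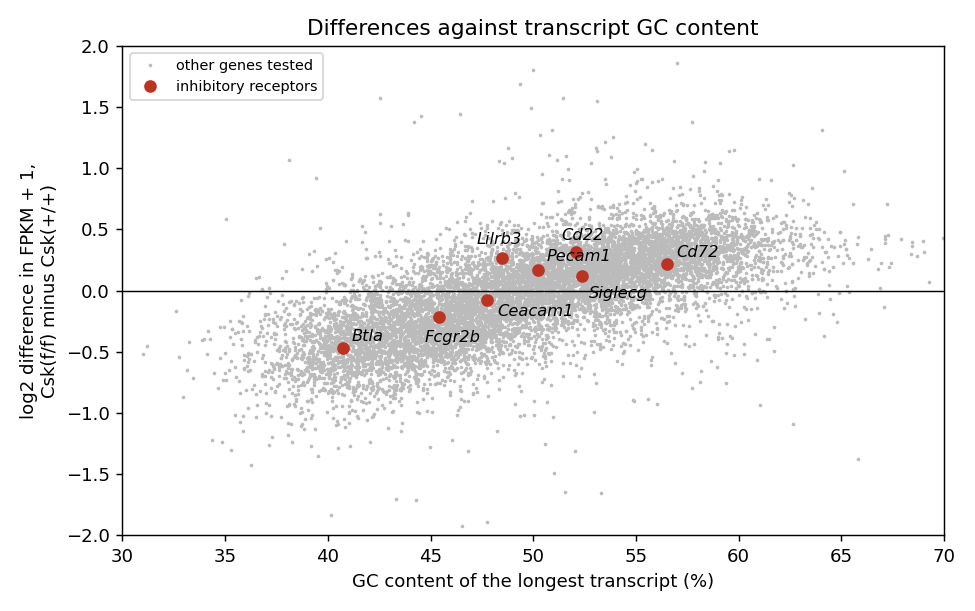
The log2 difference (Csk(f/f) minus Csk(+/+), FPKM + 1) of each tested gene against the GC content of its longest transcript, with the 8 tested receptors in red; 51 genes lie outside the axes. The receptors sit within the cloud of other genes and along its slope, from Btla at 40.7% GC to Cd72 at 56.5%.

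**Figure D3:**
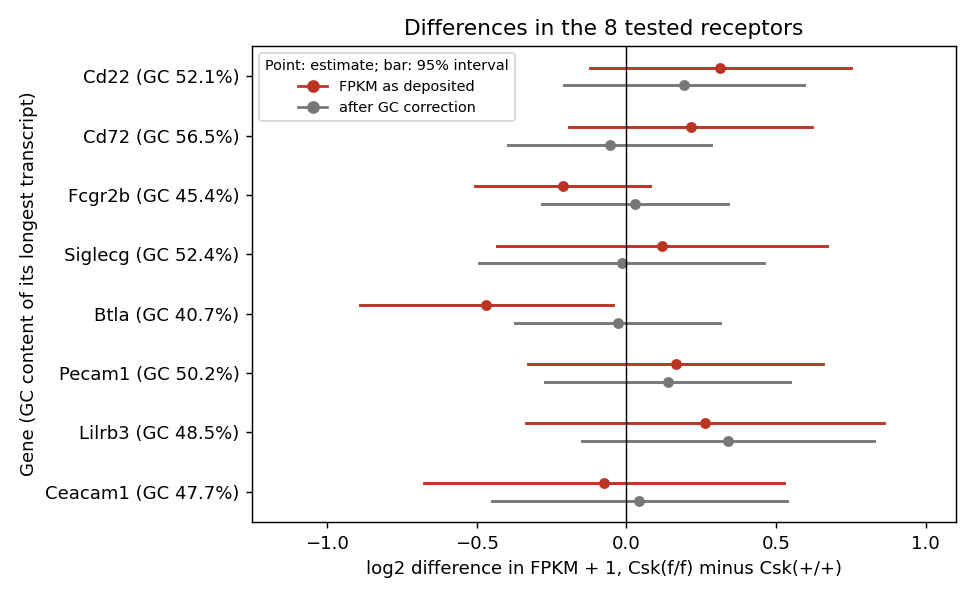
The log2 difference of each tested receptor (Csk(f/f) minus Csk(+/+), FPKM + 1) with its 95% interval, as deposited (red, upper) and after subtraction of the GC trend (grey, lower). The interval of Btla lies below 0 as deposited and spans 0 after the correction, and the intervals of the other 7 span 0 in both.

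The adhesion receptors were expressed at different levels and did not pass the threshold. Pecam1 (CD31), which binds itself on neighbouring cells, had 16.8 and 18.8 FPKM in the Csk(f/f) libraries, against 15.2, 20.3 and 12.6 FPKM in the Csk(+/+) libraries. Both Csk(f/f) values lay inside the Csk(+/+) range (log2 fold change 0.16 ± 0.21, SE, limma adjusted p = 0.655). Ceacam1, another receptor that binds itself, had 1.34 and 1.33 FPKM in the Csk(f/f) libraries, against 2.25, 1.45 and 0.869 FPKM in the Csk(+/+) libraries. The Csk(f/f) libraries lay close together inside the wider Csk(+/+) range, with a log2 fold change of -0.07 ± 0.26 (SE, limma adjusted p = 0.878). Gene-level FPKM does not separate the long Ceacam1 isoform, which has the ITIM tail, from the short one. Its paralog Ceacam2 had 2.27 and 2.15 FPKM in the Csk(f/f) libraries and 1.79, 2.24 and 3.77 FPKM in the Csk(+/+) libraries. Reads shared by the 2 genes could have been split between them.

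Lilrb3, Cd5 and Lair1 were expressed at low levels, as was Ceacam1, and the FPKM of Lair1 was close to 0. Lilrb3 (PIR-B), which binds MHC class I molecules, had 1.87 and 2.78 FPKM in the Csk(f/f) libraries, against 2.11, 2.17 and 1.098 FPKM in the Csk(+/+) libraries. The groups overlapped, and the log2 fold change was 0.26 ± 0.26 (SE, limma adjusted p = 0.552). The activating partners of the family, listed as Pira and Lilra genes, are close copies of Lilrb3 and summed over 8 genes to 1.79 and 1.803 FPKM in the Csk(f/f) libraries and 1.41, 1.902 and 1.82 FPKM in the Csk(+/+) libraries. The split of reads among these copies is uncertain. Cd5, a scavenger receptor family member of T cells and B1 cells, had 0.788 and 1.33 FPKM in the Csk(f/f) libraries, against 0.778, 0.630 and 0.665 FPKM in the Csk(+/+) libraries. It reached 1 FPKM in 1 library and so was not tested; the groups did not overlap, by a margin that is small between Csk(f/f) replicate 1 and Csk(+/+) replicate 1. Lair1, a collagen receptor, had 0.0909 and 0.0289 FPKM in the Csk(f/f) libraries, against 0.105 and 0.0995 FPKM in Csk(+/+) replicates 1 and 2, and was listed at 0 in replicate 3. With all genes in the fit, Cd5 had a log2 fold change of 0.27 (limma adjusted p = 0.451) and Lair1 of -0.01 (0.939).

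Csk(+/+) replicate 3 was the lowest Csk(+/+) library for all 8 tested members and for 9 of all 10, the exception being Cd5. Among all genes tested it was the lowest of the 3 for 53.4%. It also received the lowest weight when limma estimated library weights, 0.259, where the other 4 libraries received 1.35 to 1.55. Without it, the log2 fold change of Cd22 was 0.17 (limma adjusted p = 0.373), that of Lilrb3 0.07 (0.831) and that of Pecam1 0.01 (0.963), and the median of the 8 members was -0.06, with -0.06 for all genes. Btla had -0.55 without it (limma adjusted p = 0.0754). The count of members that passed stayed at 0 of 8 by limma, where 411 of all genes passed.

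The machinery behind the ITIM held the single gene that passed among the pathway lists, Inppl1. This gene encodes SHIP-2, a phosphatase of inositol lipids related to SHIP-1, and it lies on chromosome 7, as do 4 of the 8 tested receptors. Chromosome 7 also held 5 of the 8 genes called among all those tested, and it held 7.59% of the tested genes with a known position. Inppl1 had 16.01 and 17.1 FPKM in the Csk(f/f) libraries, against 4.501, 4.12 and 3.03 FPKM in the Csk(+/+) libraries. Both Csk(f/f) libraries stood far above all 3 Csk(+/+) libraries, with means of 16.5 ± 0.756 FPKM in Csk(f/f) (SD, n = 2) and 3.88 ± 0.763 FPKM in Csk(+/+) (SD, n = 3). The log2 fold change of Inppl1 was 1.86 ± 0.20 (SE, limma adjusted p = 0.0333) and 1.57 after the GC correction (limma adjusted p = 0.0349). The call was lost without Csk(f/f) replicate 1 (1.90, limma adjusted p = 0.193), Csk(f/f) replicate 2 (1.81, 0.44), Csk(+/+) replicate 1 (1.95, 0.0837) or Csk(+/+) replicate 2 (1.90, 0.0729), at a like fold. Of the 11 tested effectors, 1 passed as higher and 0 as lower, with a median of 0.19. Among all genes tested, 0.0391% passed in each direction. By the unadjusted limma p, 3 effectors were higher and 1 was lower at the same threshold of 0.05. The shares of all genes tested were 8.07% higher and 13.6% lower. Dok1 and Dok3 encode adaptors that damp BCR signals. Dok1 had 41.7 and 45.7 FPKM in the Csk(f/f) libraries, against 29.96, 33.0 and 33.7 FPKM in the Csk(+/+) libraries (limma adjusted p = 0.171). Dok3 had 116 and 123 FPKM in the Csk(f/f) libraries, against 89.5, 110 and 83.1 FPKM in the Csk(+/+) libraries (limma adjusted p = 0.228). After the GC correction their log2 fold changes were 0.13 and 0.04. Rasa1, a Ras GTPase-activating protein that binds Dok adaptors, had 2.89 and 1.93 FPKM in the Csk(f/f) libraries, against 5.05, 4.55 and 4.797 FPKM in the Csk(+/+) libraries (limma adjusted p = 0.155). Its log2 fold change was -0.78, or -0.38 after the GC correction (under 0.05 by the unadjusted limma p, adjusted p = 0.485), and the groups did not overlap on either scale. With library weights Rasa1 passed as lower (-0.77, limma adjusted p = 0.0451), as did 477 genes in all. Library weights were not run together with the GC correction.

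Lyn and the phosphatases that the ITIM recruits did not pass. These genes were picked for their role after their values were seen. Lyn had 66.7 and 74.6 FPKM in the Csk(f/f) libraries, against 84.7, 90.8 and 61.8 FPKM in the Csk(+/+) libraries (limma adjusted p = 0.651). Ptpn6, which encodes SHP-1, had 499.6 and 540.0 FPKM in the Csk(f/f) libraries, against 408, 471 and 403 FPKM in the Csk(+/+) libraries (limma adjusted p = 0.279). The groups of Ptpn6 did not overlap, and its log2 fold change was 0.28 as deposited and 0.06 after the GC correction. Inpp5d, which encodes SHIP-1, had 103 and 128 FPKM in the Csk(f/f) libraries, against 93.7, 111 and 83.4 FPKM in the Csk(+/+) libraries (limma adjusted p = 0.374). Ptpn11, which encodes SHP-2, was less abundant, with 19.5 and 24.5 FPKM in the Csk(f/f) libraries, against 24.6, 25.4 and 14.1 FPKM in the Csk(+/+) libraries (limma adjusted p = 0.88). The groups of Lyn, Inpp5d and Ptpn11 overlapped.

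**Figure D4:**
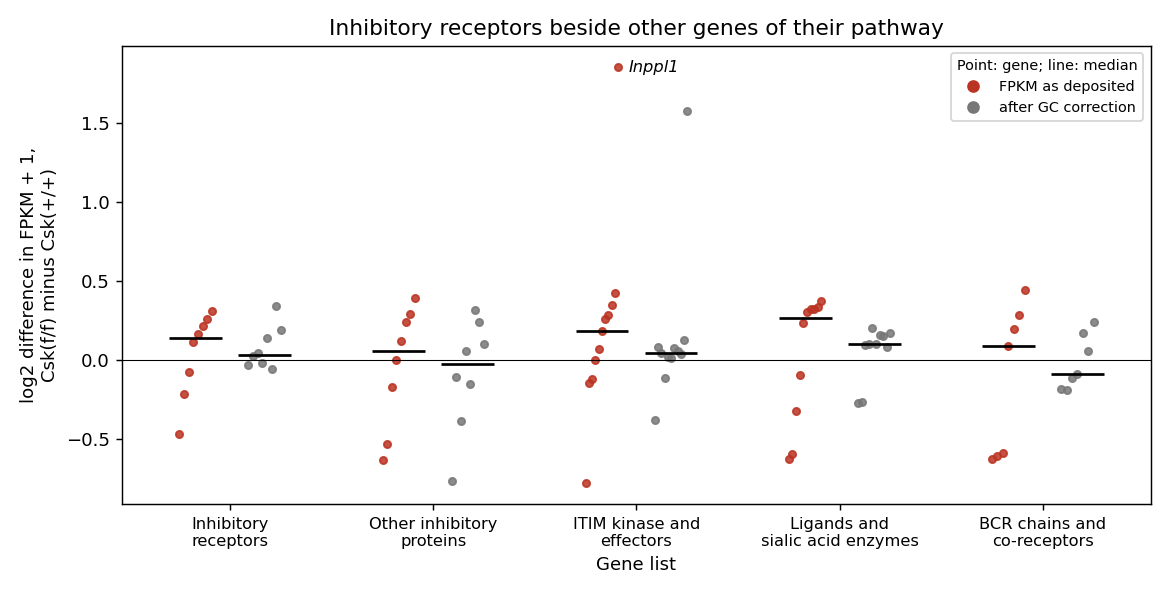
The log2 difference (Csk(f/f) minus Csk(+/+), FPKM + 1) of each tested gene in the receptor list and in 4 other lists of the pathway, as deposited (red) and after the GC correction (grey), with a line at each median. Inppl1 stands alone at 1.86 (1.57 corrected), and the medians of the 5 lists lie between 0.06 and 0.27 as deposited.

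The list of ligands and sialic acid enzymes held no gene that passed either, with 0 of 10 by limma. By the unadjusted p 1 was higher and 2 were lower, beside 8.07% higher and 13.6% lower of all genes tested. The median log2 fold change of this list was 0.27, and 0.10 after the GC correction. Cd24a, a glycoprotein bound by Siglecg, had 224 and 198 FPKM in the Csk(f/f) libraries, against 328, 312 and 337 FPKM in the Csk(+/+) libraries. Its groups were well apart, with a log2 fold change of -0.63 ± 0.13 (SE, limma adjusted p = 0.152) and of -0.27 after the GC correction. Without Csk(+/+) replicate 3 Cd24a passed as lower (-0.60, limma adjusted p = 0.0404), as did 283 genes in all, but not once GC was corrected as well (-0.21, adjusted p = 0.261). It also passed as lower with library weights (limma adjusted p = 0.0265), as did 477 genes in all. The replicate block gave the same estimate as leaving out Csk(+/+) replicate 3, since only that group has a replicate 3. Cd24a passed as lower with the block (limma adjusted p = 0.0467), as did 382 genes in all. It did not pass with the block and the GC correction (0.276). Casd1, the enzyme that adds an O-acetyl group to sialic acid, had 4.66 and 4.47 FPKM in the Csk(f/f) libraries, against 8.18, 6.66 and 7.35 FPKM in the Csk(+/+) libraries (limma adjusted p = 0.171). Tnfrsf14, the ligand of Btla, was picked for that role after its values were seen and had 18.7 and 24.7 FPKM in the Csk(f/f) libraries, against 24.0, 22.6 and 9.21 FPKM in the Csk(+/+) libraries (limma adjusted p = 0.645). Its groups overlapped, and Csk(+/+) replicate 3 was again the lowest library. The MHC class I genes H2-K1 and H2-D1, whose products are bound by PIR-B, share much of their sequence. H2-K1 had 1035 and 1024 FPKM in the Csk(f/f) libraries, against 878, 799 and 710.3 FPKM in the Csk(+/+) libraries (limma adjusted p = 0.23). The other, H2-D1, had 884 and 823 FPKM in the Csk(f/f) libraries, against 701, 642 and 686 FPKM in the Csk(+/+) libraries (limma adjusted p = 0.232). The groups of libraries did not overlap for either MHC gene, with corrected log2 fold changes of 0.17 and 0.08.

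The BCR signalling chains and activating co-receptors gave 0 of 7 by limma, with 0 higher against 3 lower by the unadjusted p. The shares of all genes tested by that p were 8.07% higher and 13.6% lower. Their median log2 fold change was 0.09, or -0.09 once corrected. The 3 lower genes were transcripts of low GC content. Ptprc, the phosphatase CD45, had 89.0 and 60.1 FPKM in the Csk(f/f) libraries, against 101, 107 and 124 FPKM in the Csk(+/+) libraries (limma adjusted p = 0.175, GC content 39.4%). Cr2, a complement receptor of B cells, had 11.6 and 11.1 FPKM in the Csk(f/f) libraries, against 17.5, 22.4 and 14.3 FPKM in the Csk(+/+) libraries (limma adjusted p = 0.18, GC content 41.4%), and passed as lower without Csk(+/+) replicate 3 (-0.75, limma adjusted p = 0.0477) and with library weights (-0.73, 0.0404). With the GC correction and without that library Cr2 had -0.325 (limma adjusted p = 0.345). Ms4a1, which encodes CD20, had 391.8 and 285 FPKM in the Csk(f/f) libraries, against 479, 419 and 687 FPKM in the Csk(+/+) libraries (limma adjusted p = 0.208, GC content 40.6%). In all 3 every Csk(f/f) library lay below every Csk(+/+) library as deposited, as for 24.5% of all genes tested. After the correction the groups overlapped, with log2 fold changes of -0.11 for Ptprc, -0.19 for Cr2 and -0.18 for Ms4a1. Cd79b, a signalling chain of the BCR, had 1828 and 1580.4 FPKM in the Csk(f/f) libraries, against 979, 1228 and 1627 FPKM in the Csk(+/+) libraries (limma adjusted p = 0.306). Its groups overlapped through Csk(+/+) replicate 3, and without that library its log2 fold change was 0.63 (limma adjusted p = 0.0505).

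Other inhibitory surface proteins of leukocytes were mostly scarce in these cells. Of 19 listed, 17 were in the table and 8 were tested; the other 9 stayed at or below 1.16 FPKM in every library, Cd200r1 being listed at 0 throughout. None of the 8 passed by limma, and their fold changes had a median of 0.06 on the log2 scale. By the unadjusted p 1 was higher and 1 lower, beside 8.07% higher and 13.6% lower of all genes tested. Cd37, a tetraspanin that restrains B cell signals, was the abundant gene of the list, with 927 and 975 FPKM in the Csk(f/f) libraries, against 634, 799.9 and 749 FPKM in the Csk(+/+) libraries (limma adjusted p = 0.226). Its log2 fold change was 0.39 as deposited and 0.10 after the GC correction. Clec12a, an ITIM-bearing lectin known from myeloid cells, had 9.64 and 7.73 FPKM in the Csk(f/f) libraries, against 12.6, 12.5 and 13.6 FPKM in the Csk(+/+) libraries (limma adjusted p = 0.176), with a log2 fold change of -0.53 as deposited and of -0.10 after the correction. Cd37 was higher and Clec12a lower without overlap, and the groups of both overlapped after the correction. Tigit, an inhibitory receptor known from T cells, had 1.14 and 1.06 FPKM in the Csk(f/f) libraries, against 1.49, 1.99 and 3.59 FPKM in the Csk(+/+) libraries (limma adjusted p = 0.237). Pilra, an ITIM-bearing receptor of myeloid cells, had 1.32 and 1.91 FPKM in the Csk(f/f) libraries, against 1.13, 1.33 and 1.14 FPKM in the Csk(+/+) libraries (limma adjusted p = 0.48). Both Tigit and Pilra lay near the filter, Tigit with groups that did not overlap and Pilra with groups that did. After the GC correction their groups did not overlap, with a log2 fold change of -0.76 for Tigit (under 0.05 by the unadjusted limma p, adjusted p = 0.487) and of 0.32 for Pilra (adjusted p = 0.606).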

How the data were processed

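The deposited values are FPKM of each gene. The submitters' processing notes name TopHat2 2.0.8, Cufflinks 2.1.1 and mm9; the annotation and any scaling between libraries are not given in the sources used here. RNA came from TRIzol and libraries from the NEBNext Ultra kit, per the labels' protocols. A repeated header line was left out. Genes were kept where 2 or more libraries had 1 FPKM or more. limma 3.58.1 (R 4.3.3, trended prior) then compared log2(FPKM + 1), Csk(f/f) minus Csk(+/+), with Benjamini-Hochberg adjustment over all genes kept, and this code was tested on simulated data. For the GC correction, a lowess curve (span 0.3) of each library's departure from the mean of the gene, over the GC content of the longest GENCODE M21 transcript (10119 of the genes kept), was taken off. Depth came from the smallest FPKM steps of transcripts of 1500 nt or more. Alternatives were other pseudocounts, filters, scalings, priors, library weights, a replicate block and each library left out. The text names all 10 members and, from each of 4 pathway lists, the 4 tested genes with the smallest p. Members, lists and alternatives were chosen with earlier results of these data known.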

Additional observations from a re-analysis of the deposited data

How the results depend on the processing

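With each of 22 alternatives 0 members passed by limma, where the numbers of all genes called were 8 as reported and 5 with no filter, 671 with library weights, 492 with the replicate block (110 higher and 382 lower), 162 with the replicate block and the GC correction, and 5 to 411 with 1 library left out (5 to 40 with the GC correction as well). The low count came with either Csk(f/f) library left out, and the high one without Csk(+/+) replicate 3. The members at an unadjusted p under 0.05 by limma numbered 1 as reported, beside 21.7% of all genes tested. They numbered 0 with no filter (14.9% of all genes) and with no trend in the prior (21.1%). The number was also 0 with the GC correction (9.96%) and with the replicate block and the GC correction (21.5%). With 1 Csk(+/+) library left out they numbered 0 to 2, beside 12.5% to 34.7% of all genes. The 2 were Cd22 and Cd72 without Csk(+/+) replicate 2, where 20.7% of all genes were under 0.05. With the GC correction as well the count was 0, beside 5.88% to 20.4%. The labels do not say that the replicate numbers pair the samples. Deviations of same-numbered libraries correlated at -0.13 and 0.11. With 2 Csk(f/f) libraries, the deviations of 1 mirror those of the other, so these values are not separate checks. The replicate block changed no call of a member. Without the GC correction, its log2 fold changes equal those without Csk(+/+) replicate 3, which has no same-numbered Csk(f/f) library. Pairing was thus not tested.

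Signs turned as follows. With the GC correction, log2 fold changes were -0.056 for Cd72, 0.029 for Fcgr2b, -0.016 for Siglecg and 0.043 for Ceacam1. With the replicate block and the GC correction they were -0.11 for Cd72, 0.048 for Fcgr2b, -0.21 for Siglecg and 0.021 for Ms4a1. Siglecg had -0.068 with library weights and -0.13 with the replicate block, and Ceacam1 0.040 with quantile normalization. With the GC correction and a library left out, the turned values of Cd72 were -0.049, -0.060, -0.11 and -0.11, those of Fcgr2b 0.049, 0.060 and 0.14, and those of Siglecg -0.084 and -0.21. Those of Btla were 0.011, 0.019 and 0.099, and those of Ceacam1 0.021, 0.028, 0.067 and 0.19. In the same fits H2-D1 had -0.0031 and -0.0068, Ptprc 0.029, Cr2 0.0030 and Ms4a1 0.027. With a library left out and no correction, Siglecg ranged from -0.13 to 0.24 and Ceacam1 from -0.27 to 0.13. Cd22, Lilrb3 and Pecam1 kept their sign throughout. With no filter the Inppl1 call was lost (limma adjusted p = 0.272). The cause of these changes was not tested. With 2 libraries against 3 the intervals are wide, and members near 1 FPKM rest on few fragments.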

Other observations

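The ratio of Cd22 to Fcgr2b FPKM, which was chosen after the values were seen, was 5.81 and 5.90 in the Csk(f/f) libraries, against 4.04, 4.75 and 3.46 in the Csk(+/+) libraries, without overlap. Such ratios were common. Of the 28 pairs of the 8 tested members, 11 had ratios without overlap, 9 of them in pairs with Btla or Fcgr2b. The share over pairs of all genes tested was not taken, so these counts cannot be read as a result about the members. As single genes, 45.1% of those tested had groups that did not overlap. The transcripts of Cd22 and Fcgr2b differ in GC content (52.1% for Cd22 and 45.4% for Fcgr2b), and the part of GC content in the ratio was not tested.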
